A study of Homo sapiens with 3 samples.

Results

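The contractile and actin stress fibre genes code for the filaments, motors and anchors with which a cell pulls on its surroundings. They were taken as a list of 38 named genes and looked up, by single gene symbol, among 19775 genes named on the arrays. Of these members 35 had such a probe set, and 34 are called measured because they passed the floor, a signal of 45.5, on 1 or more arrays. ACTA1, the alpha actin of skeletal muscle, was at or below the floor on all 3 arrays, with signals of 8.9 in OIS, 39.8 in RS and 14.7 in growing cells. FLNA, FLNC and TPM3 were not analysed here. The members were sorted by role into 12 muscle-type genes, 6 genes whose isoforms are shared between muscle and other cells, 16 ubiquitous genes and 4 transcriptional regulators.

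Expression was measured in IMR-90 ER:Ras cells, with 1 microarray per condition. These are human lung fibroblasts that carry a Ras oncoprotein fused to the ligand-binding domain of the oestrogen receptor. OIS (oncogene-induced senescence) cells had been kept in 100 nM 4-OHT (4-hydroxytamoxifen, which switches such fusions on) for 6 days. RS (replicative senescence) cells had been passaged repeatedly for 10 weeks, and growing cells had no treatment. All 3 cultures carried the ER:Ras fusion. Only the OIS culture had 4-OHT, so effects of the drug and of Ras cannot be told apart.

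In a stress fibre, bundles of actin filaments are cross-linked by alpha-actinin, stabilised by tropomyosin and caldesmon, pulled by non-muscle myosin II and tied to integrins through talin, vinculin and zyxin. Fibroblasts that take on smooth muscle features, the myofibroblasts of wounds and fibrotic lung, add alpha smooth muscle actin, calponin and transgelin to this ubiquitous set. The serum response factor SRF binds the CArG box in the promoters of many of these genes, and its coactivators myocardin and the myocardin-related factors MRTFA and MRTFB link it to muscle identity and to the pool of free actin.

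A single array per condition allowed no test between them, and precision is limited by this number. Signals are linear intensities on a common scale, with a trimmed mean of 497 on each array. The floor was the pooled median signal, 45.5, and lower values were raised to it before ratios were formed. The highest signal on any array was 36667, in RS cells. A ratio could be repeated only with a further probe set for that gene. Over 6759 genes with such a pair the SD per probe set, in log2 units, was 0.36 in the comparison of OIS with growing cells, 0.33 in that of RS with growing cells and 0.37 in that of OIS with RS. These are errors of the probes, and the spread between cultures is unknown. All 15 fibroblast markers were measured, with COL1A1, the main collagen of fibroblasts, at 36639 in OIS, 34357 in RS and 33451 in growing cells. Bulk signals cannot tell more cells of a kind from more RNA per cell.

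The windows just before the annotated starts of 5 members are shown because each holds the CArG box. ACTC1 and ACTG2 are muscle-type, CNN2 and TPM4 ubiquitous and SRF a regulator, so the box stood before genes of different classes. Each line gives the 200 bases upstream of a RefSeq start in the GRCh38.p14 build, 5′ to 3′ on the gene's strand, with the box in capitals.
ACTC1, chr15:34795550-34795749, minus strand: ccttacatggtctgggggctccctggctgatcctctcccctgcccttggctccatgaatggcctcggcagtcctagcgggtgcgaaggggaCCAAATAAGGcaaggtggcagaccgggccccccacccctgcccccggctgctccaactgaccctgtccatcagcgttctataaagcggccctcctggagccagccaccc
ACTG2, chr2:73892808-73893007, plus strand: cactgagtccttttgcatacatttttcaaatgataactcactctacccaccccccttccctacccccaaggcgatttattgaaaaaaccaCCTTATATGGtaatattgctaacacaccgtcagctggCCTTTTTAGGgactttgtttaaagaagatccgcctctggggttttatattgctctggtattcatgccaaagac
CNN2, chr19:1026408-1026607, plus strand: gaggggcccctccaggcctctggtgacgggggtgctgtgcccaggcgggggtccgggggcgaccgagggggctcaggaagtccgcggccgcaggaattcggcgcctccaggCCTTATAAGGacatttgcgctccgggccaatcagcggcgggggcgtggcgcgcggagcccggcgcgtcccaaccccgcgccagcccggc
TPM4, chr19:16067338-16067537, plus strand: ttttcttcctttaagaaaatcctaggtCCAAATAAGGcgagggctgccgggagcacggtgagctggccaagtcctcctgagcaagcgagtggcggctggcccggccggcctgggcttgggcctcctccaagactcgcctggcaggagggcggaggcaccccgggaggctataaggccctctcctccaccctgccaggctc
SRF, chr6:43171069-43171268, plus strand: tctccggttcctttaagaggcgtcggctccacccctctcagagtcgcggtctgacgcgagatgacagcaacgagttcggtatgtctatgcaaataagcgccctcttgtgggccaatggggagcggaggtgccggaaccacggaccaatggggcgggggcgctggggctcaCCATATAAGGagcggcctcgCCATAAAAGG

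The box began at position -109 from the start in ACTC1, -89 in CNN2 and -173 in TPM4. ACTG2 had a box at -110 and another at -73, and SRF had them at -30 and -10. ACTC1 and TPM4 carried the same letters in the box. The 250 bases upstream of every annotated start were searched for the CArG box, a palindromic pattern that reads alike on both strands. Of 30 measured members with a window 9 had it in at least 1 of their windows (30.0%), against 394 of 27305 genes (1.44%). By class these were 3 of 8 muscle-type, 1 of 5 shared and 4 of 14 ubiquitous members, and 1 of 3 regulators. In SMTN, MYLK, ACTN1 and LPP the box stood only before a start 1736 to 263784 bases from the 5′ end of the gene. TAGLN, MYH11, MYL9 and MYOCD had no window. Per window the share was 14.3% of 63 for measured members and 1.16% of 35116 overall. The set holds SRF and genes known for their CArG box, so a higher share follows in part from the choice of members. The genes set against them were taken whether measured or not. Among the members at least 2-fold higher in RS than in growing cells, ACTC1 had the box and CNN1, LMOD1, SYNPO2 and SYNM had none in these windows. A match describes the letters and is no evidence of binding.

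Several muscle-type genes were high in RS cells, and some were low in OIS cells. In RS cells 5 of the 10 measured muscle-type members were at least 2-fold higher than in growing cells and none lower. In OIS cells 3 of the 10 passed 2-fold downward and none upward. Set directly against each other, 7 of the 10 were at least 2-fold lower in OIS than in RS cells, and all 10 had a ratio below 1, as had 48.1% of all measured genes. Of the 14 measured ubiquitous members 1 passed 2-fold in RS, 1 in OIS over RS, and none in OIS over growing cells.

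Of the 13466 genes measured in all, 3.72% passed 2-fold upward and 5.58% downward in RS over growing cells. In OIS over growing cells 4.92% were higher and 6.63% lower, and in OIS over RS 5.48% were higher and 5.27% lower. Of all 34 measured members 5 were higher and 2 lower in RS, none were higher and 3 lower in OIS, and 1 was higher and 8 lower in OIS over RS. The members' 3 of 34 lower in OIS is near that background. The muscle-type count was 5 of 10 higher in RS and 7 of 10 lower in OIS over RS. The classes were sorted by role from members chosen with earlier results of these data known, so these counts describe the arrays and are no test.

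ACTC1, the alpha actin of the heart, had a signal of 60.4 in OIS, 640.5 in RS and 64.1 in growing cells. OIS and growing cells were thus alike and close to the floor, and RS stood alone. The RS signal was 9.99-fold that of growing cells, the ninth highest ratio in RS among all measured genes, and the OIS signal was 10.6-fold lower than in RS. A floor at the 60th percentile, 88.8, gave a log2 ratio of RS over growing cells of 2.85 in place of 3.32. The gene had a single probe set.

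ACTA2, the alpha smooth muscle actin by which myofibroblasts are recognised, read 16060 in OIS, 27518 in RS and 15226 in growing cells. Only RS was high, at 1.81-fold over growing cells, while OIS was 1.06-fold. A dimmer probe set, at or below the floor in OIS and growing cells, read 100.1 in RS. ACTG2, the gamma actin of visceral smooth muscle, had 10811 in OIS, 27381 in RS and 18786 in growing cells. It was 1.74-fold lower in OIS and 1.46-fold higher in RS than in growing cells, and the OIS signal was 2.53-fold below that of RS. Muscle actins are close to identical as proteins, and no probe sequences were used here, so how far their probe sets read each other was not tested. ACTB, the cytoplasmic beta actin and no member of the set, read 24099 in OIS, 29394 in RS and 25546 in growing cells.

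CNN1, basic calponin, damps the myosin ATPase of smooth muscle. Its signal was 1084 in OIS, 5750 in RS and 2442 in growing cells. OIS was 2.25-fold lower and RS 2.35-fold higher than growing cells, which lay between them. TAGLN, transgelin, an actin-bundling protein of smooth muscle and an early marker of its lineage, read 6804 in OIS, 22028 in RS and 14190 in growing cells. It had the same order as CNN1, with OIS 2.09-fold lower and RS 1.55-fold higher than growing cells. Both other probe sets had the same signs, and 1 of them, at 148.5 in OIS, 786.5 in RS and 337.8 in growing cells, gave a log2 ratio of 1.22 for RS over growing cells.

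SYNPO2, also called myopodin, is an actin-bundling protein of the Z-disc and of stress fibres. It had a signal of 86.8 in OIS, 1686 in RS and 207.2 in growing cells. Its OIS signal was 19.4-fold below that of RS, the sixth lowest ratio of all measured genes in that comparison. RS was 8.14-fold higher and OIS 2.39-fold lower than growing cells. All 4 other probe sets above the floor were higher in RS, with log2 ratios between 1.5 and 3.11, and 3 of the 4 were lower in OIS. With the median of all 7 probe sets, several of them dim, the log2 ratio of OIS over growing cells was -0.58, short of 2-fold.

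LMOD1, leiomodin, nucleates actin filaments in smooth muscle. It read 152.4 in OIS, 780.7 in RS and 265.5 in growing cells, again with growing cells in the middle. RS was 2.94-fold higher than growing cells, but the other probe set, at 101.8 in OIS, 159.2 in RS and 110.1 in growing cells, gave a log2 ratio of only 0.53 in place of 1.56. Both of its probe sets belong to the kind that can hybridize to several transcripts. SYNM, synemin, is an intermediate filament protein that ties desmin or vimentin to the Z-disc and to adhesions. Its signal was 791.7 in OIS, 1910 in RS and 612.5 in growing cells, 3.12-fold higher in RS and 1.29-fold higher in OIS than in growing cells.

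The other muscle-type genes gave small ratios. SMTN, smoothelin, a marker of contractile smooth muscle, read 338.6 in OIS, 480.7 in RS and 393.4 in growing cells, 1.22-fold higher in RS than in growing cells, and its other probe sets had the same signs. MYH11, the smooth muscle myosin heavy chain that defines the differentiated cell, was just above the floor on every array, at 48.8 in OIS, 54.0 in RS and 59.0 in growing cells. Of its 7 probe sets only 1 other passed the floor, at 52.5 in RS. High calponin and leiomodin signals in RS stood beside a smooth muscle myosin at the floor.

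**Figure D1:**
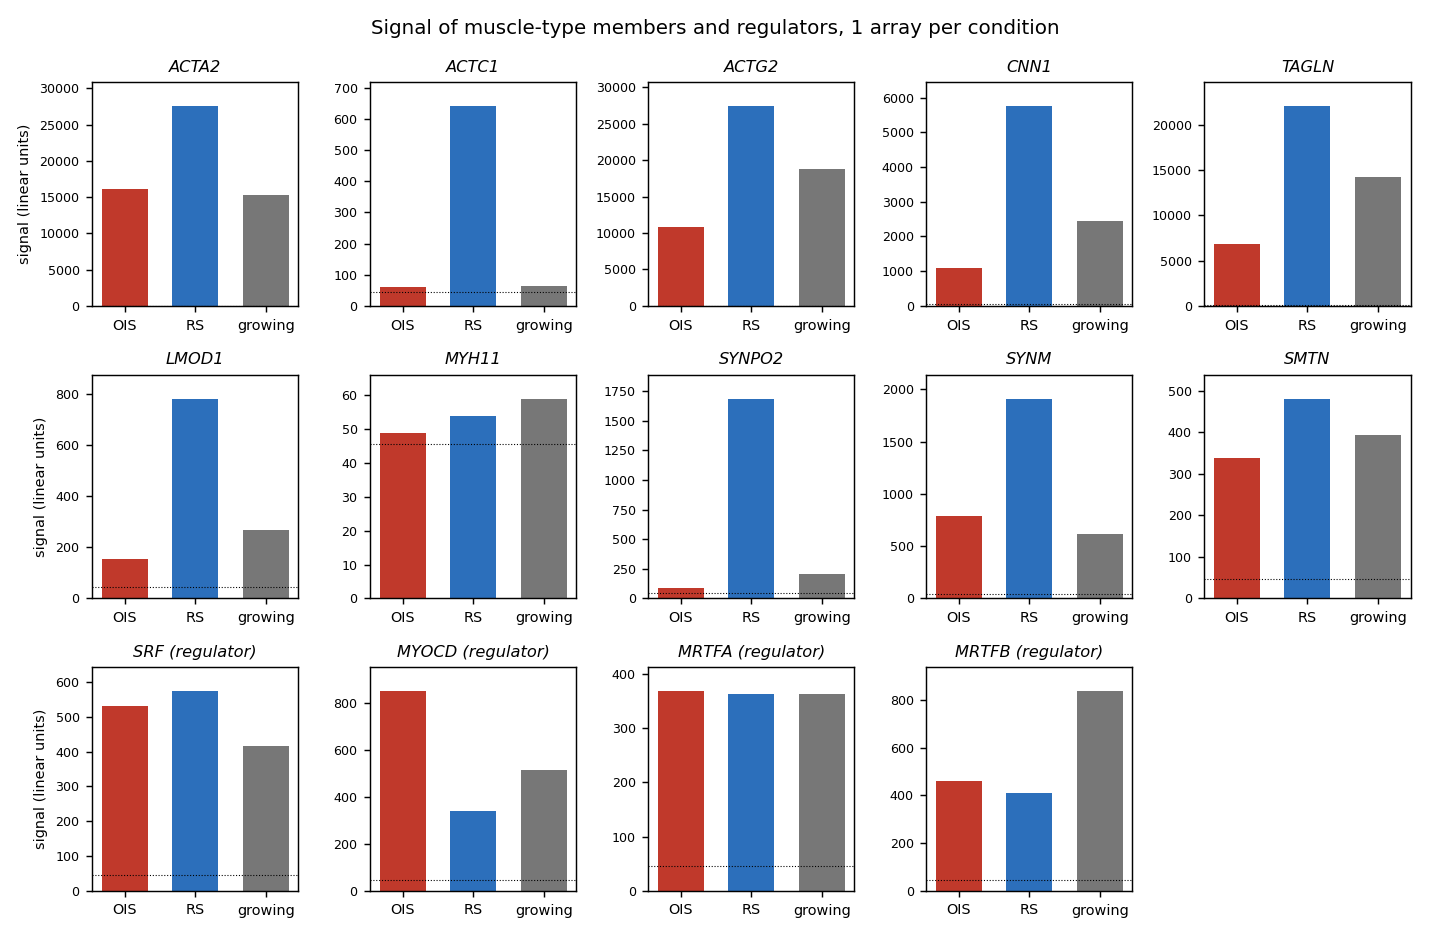
Bars give the linear signal of each measured muscle-type member and regulator on the OIS, RS and growing arrays (1 array each, no error bars), with the floor of 45.5 as a dotted line and a separate axis per gene. For 9 of the 10 muscle-type genes the RS bar is the tallest, MYH11 being the exception, whereas MYOCD is highest in OIS.

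The shared genes, whose splice forms serve both smooth muscle and other cells, had no member past 2-fold in either senescent state. All 6 had a ratio above 1 in RS, as had 47.1% of all measured genes, with a median log2 ratio of 0.36, and their median in OIS was -0.09. MYL9, the regulatory light chain of smooth muscle and stress fibre myosin, read 2475 in OIS, 4707 in RS and 3227 in growing cells, the highest RS ratio of this class at 1.46-fold. PDLIM7, a PDZ and LIM domain protein of the Z-disc and stress fibres, read 190.2 in OIS, 348.9 in RS and 340.2 in growing cells. It was 1.79-fold lower in OIS, where all 5 other probe sets had the same sign, and 1.03-fold higher in RS. MYLK, the kinase that phosphorylates this light chain, read 16850 in OIS, 22961 in RS and 18551 in growing cells. Its probe set at 82.0 in OIS, 212.8 in RS and 197.9 in growing cells gave a log2 ratio of -1.27 for OIS over growing cells, against -0.14 for the brightest.

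For 10 members, all of them bright, the probe set used read over 10000 on all 3 arrays, and there the choice of probe set mattered. TPM1, a tropomyosin of muscle and stress fibres, read 24895 in OIS, 32647 in RS and 24584 in growing cells, a log2 ratio of 0.41 for RS over growing cells. Its 4 other probe sets above the floor gave 0.59, 0.75, 1.02 and 1.76, in the order from brightest to dimmest. The dimmest had 179.5 in OIS, 609.6 in RS and 180.0 in growing cells, so RS was the high array in each. TPM2, beta tropomyosin, gave 0.30 with the probe set that read 25090 in OIS, 31650 in RS and 25738 in growing cells. A dimmer probe set, at 559.7 in OIS, 862.6 in RS and 529.2 in growing cells, gave 0.70. CALD1, caldesmon, which blocks myosin from actin until calcium rises, read 27050 in OIS, 32508 in RS and 23657 in growing cells. The ratio of RS over growing cells was 0.46 on the log2 scale, and between 0.01 and 2.15 for its 10 other probe sets. Of these 10 bright members 9 had a further probe set at up to 10000, and for 7 of the 9 the median of those gave a higher log2 ratio of RS over growing cells. When each gene was read by its brightest probe set up to 10000, a choice made after these values were seen, 9 members were at least 2-fold higher in RS in place of 5, beside 508 of all 13172 genes measured under that choice (3.86%). The added ones were ACTA2, TAGLN, TPM1 and CALD1. The part of signal level in these differences was not tested.

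**Figure D2:**
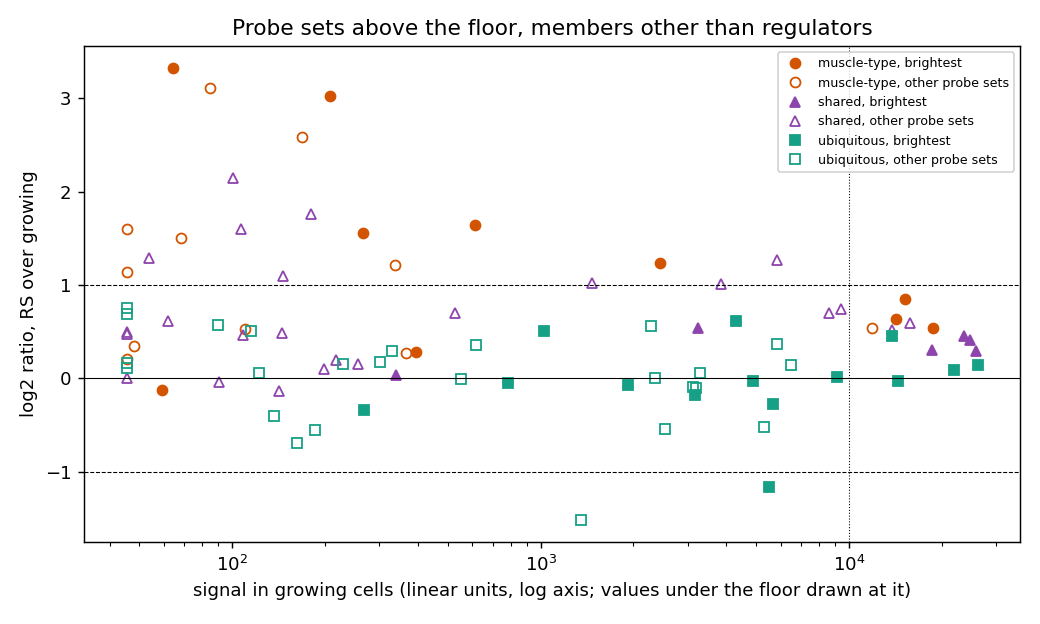
Each point is a probe set of a muscle-type, shared or ubiquitous member above the floor, with its signal in growing cells on a log axis and its log2 ratio of RS over growing cells. Filled points are the brightest probe set of a gene, open points its others, and the filled points of shared genes right of the dotted line at 10000 lie lower than most of the open points of that class to the left.

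The ubiquitous genes gave a different picture. In RS their median log2 ratio was -0.03, with 6 of 14 above 0 and 8 below, where the muscle-type median was 1.04. In OIS 13 of 14 had a ratio below 1 (49.9% of all measured genes), at a median of -0.32, but none reached 2-fold. The muscle-type median in OIS was -0.54, and its difference from the ubiquitous one, -0.21, changed sign under 5 of the other settings. The classes thus differed by 1.07 log2 units in RS over growing cells and by -1.21 in OIS over RS, while the OIS over growing difference had no fixed sign.

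MYH10, the heavy chain of non-muscle myosin IIB, was the exception among the ubiquitous genes and was low in both senescent cultures. Its signal was 2876 in OIS, 2463 in RS and 5512 in growing cells, 1.92-fold lower in OIS and 2.24-fold lower in RS than in growing cells. The other probe set read 556.7 in OIS, 473.6 in RS and 1351 in growing cells, with a log2 ratio over growing cells of -1.28 in OIS and -1.51 in RS. MYH9, the heavy chain of myosin IIA, was 1.35-fold lower in OIS and 1.13-fold lower in RS than in growing cells, with signals of 2347 in OIS, 2804 in RS and 3178 in growing cells. MYL6, the essential light chain, had the highest ubiquitous ratio in OIS at 1.05-fold, with 27568 in OIS, 28918 in RS and 26181 in growing cells. Its dim second probe set had the opposite sign in OIS, at 89.8 in OIS, 162.8 in RS and 114.8 in growing cells.

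ACTN4, an alpha-actinin of non-muscle cells, read 631.8 in OIS, 1451 in RS and 1023 in growing cells. It was the single ubiquitous member past 2-fold in OIS over RS, 2.30-fold lower, and had 1 probe set. ACTN1, the other non-muscle alpha-actinin, read 21477 in OIS, 23198 in RS and 21846 in growing cells with its brightest probe set, a log2 ratio of -0.11 for OIS over RS. Its 3 other probe sets above the floor, all dimmer, gave -0.50, -0.61 and -0.75 in that comparison. PDLIM5, which anchors kinases to the Z-disc and stress fibres, had the highest ubiquitous ratio in RS, 1.53-fold, at 3869 in OIS, 6586 in RS and 4308 in growing cells. ZYX, zyxin, which repairs strained stress fibres, read 481.2 in OIS, 759.7 in RS and 786.3 in growing cells and was low in OIS alone, by 1.63-fold against growing cells. CNN2, the calponin of non-muscle cells, had the same pattern at 1194 in OIS, 1832 in RS and 1919 in growing cells, 1.61-fold lower in OIS than in growing cells. TPM4, a tropomyosin of non-muscle cells, read 3655 in OIS, 4676 in RS and 5648 in growing cells, 1.55-fold lower in OIS, and 2 of 3 other probe sets had that sign. The other 5 ubiquitous genes were all within 1.5-fold of growing cells in both states. They are CNN3, an acidic calponin, TAGLN2, the transgelin of non-muscle cells, the adhesion proteins VCL (vinculin) and TLN1 (talin), and LPP, a LIM protein related to zyxin. VCL had the highest RS ratio of these 5, 1.38-fold, at 12352 in OIS, 18996 in RS and 13810 in growing cells.

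Paralogs made the class contrast gene by gene. CNN1 stood above CNN2 by 1.30 log2 units in the ratio of RS over growing cells and above CNN3 by 1.26, TAGLN above TAGLN2 by 0.61 and MYL9 above MYL6 by 0.40. TPM1 and TPM2 stood above TPM4 by 0.68 and 0.57. Against ACTB the differences were 3.12 for ACTC1, 0.65 for ACTA2 and 0.34 for ACTG2. In all 9 such pairs the RS ratio of the muscle-type or shared form was the higher. The pairs reuse the ratios given above, and CNN1, TPM4 and ACTB each stand in several, so they are not independent. The SD per probe set in this comparison, 0.33, is that of 1 ratio, and a difference of 2 ratios has a larger one. The differences of 0.34 and 0.40 are near even the smaller value. Those from 0.57 to 0.68 are to be read against the larger one and are not far from it. In OIS over growing cells the difference was above 0 for 3 pairs and below for 6, and in OIS over RS it was below 0 for 8.

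**Figure D3:**
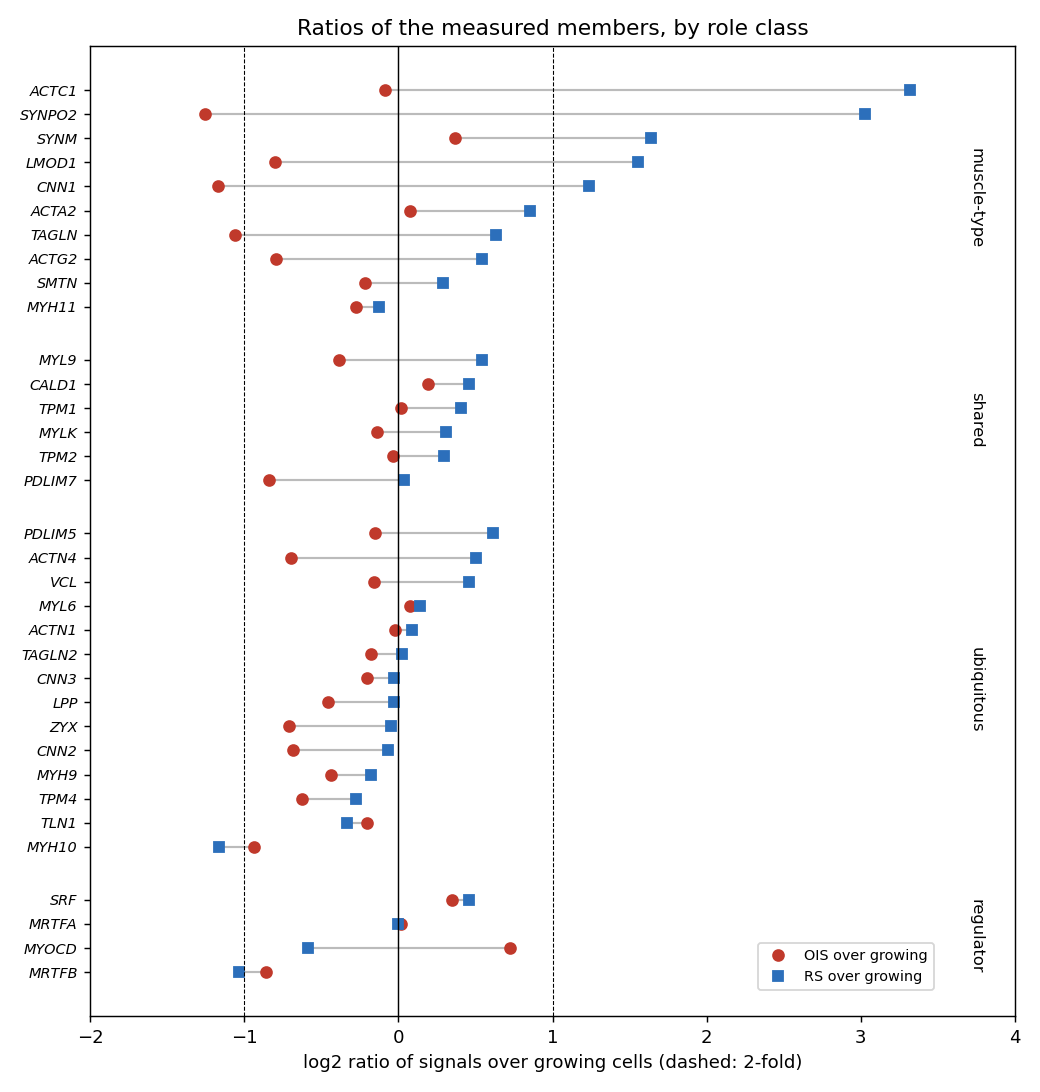
Log2 ratios over growing cells are drawn for the 34 measured members by role class, with OIS as circles and RS as squares, joined by a line per gene, and dashed lines at 2-fold. Long lines lie in the muscle-type class, from -1.26 to 3.02 for SYNPO2, and 13 of the 14 ubiquitous genes have both marks inside the dashed lines, MYH10 being the exception.

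The regulators did not run with the muscle-type genes as a group. MYOCD, myocardin, the SRF coactivator of heart and smooth muscle, read 850.9 in OIS, 342.1 in RS and 514.3 in growing cells. It was thus highest where most muscle-type genes were lowest, 2.49-fold higher in OIS than in RS, 1.65-fold higher in OIS and 1.5-fold lower in RS than in growing cells. Its second probe set had the same order, at 337.0 in OIS, 163.7 in RS and 289.8 in growing cells. MRTFB read 460.4 in OIS, 408.5 in RS and 836.5 in growing cells, 1.82-fold lower in OIS and 2.05-fold lower in RS than in growing cells, and after quantile normalization RS was no longer past 2-fold. MRTFA read 367.3 in OIS, 362.1 in RS and 362.9 in growing cells with its brightest probe set. None of its 4 other probe sets shared the sign of the RS ratio, and the second brightest, at 142.8 in OIS, 177.8 in RS and 116.9 in growing cells, was 1.52-fold higher in RS than in growing cells. SRF had 529.9 in OIS, 573.0 in RS and 417.0 in growing cells, 1.27-fold higher in OIS and 1.37-fold higher in RS than in growing cells. Its second probe set gave the opposite sign in both, at 53.4 in OIS, 59.2 in RS and 72.6 in growing cells. MRTF activity is known to be set largely by the place of the protein in the cell, which an mRNA signal does not show.

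**Figure D4:**
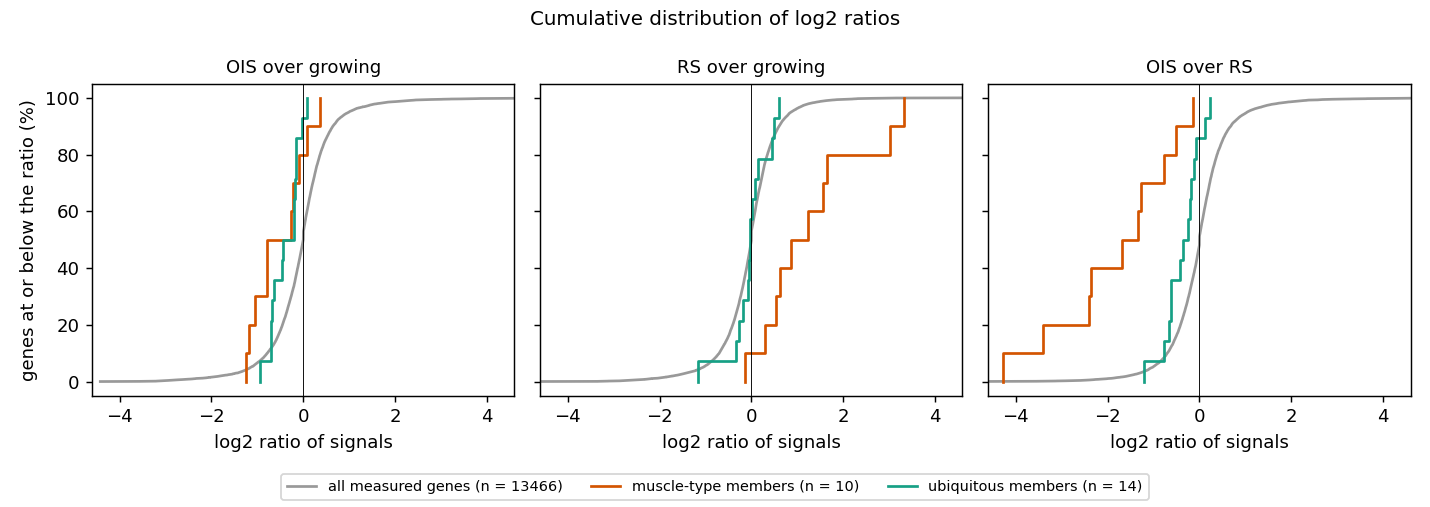
Each panel gives, for 1 comparison, the percent of genes at or below a log2 ratio, for all 13466 measured genes (grey), the 10 muscle-type members (orange) and the 14 ubiquitous members (green). The orange line lies right of the grey one in RS over growing cells and left of it in OIS over RS, and the green line lies left of the grey one over most of its range in OIS over growing cells and in OIS over RS.

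Genes outside the set that bear on the same structures were looked at in 3 lists, which overlap. ANKRD1 and CSRP2, among others, stand in both the LIM and focal adhesion list and that of SRF and MRTF targets. Their calls are counted in each. Of 31 measured actin filament turnover genes 1 was higher and 1 lower than growing cells by 2-fold in each senescent state, with medians of 0.22 in RS and 0.05 in OIS, and 27 of 31 had a ratio above 1 in RS (47.1% of all measured genes). DIAPH3, a formin used in cytokinesis and cell movement, was 6.07-fold lower in OIS and 2.47-fold lower in RS, at 556.0 in OIS, 1364 in RS and 3373 in growing cells. TMOD1, tropomodulin, which caps the pointed end of actin filaments in muscle, had 167.7 in OIS, 573.9 in RS and 266.7 in growing cells, 2.15-fold higher in RS, the order of the muscle-type members. DAAM1, a formin of the planar polarity pathway, was 2.67-fold higher in OIS, at 773.6 in OIS, 487.1 in RS and 289.9 in growing cells. CAP2, a muscle-enriched cyclase-associated protein that recycles actin, was 1.78-fold lower in OIS and 1.74-fold higher in RS than in growing cells. LIMK1 was 1.71-fold and FMNL3 1.7-fold higher in OIS, LIMK2 was 1.96-fold higher in RS, and FHOD3 was just short of 2-fold lower in OIS.

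Of 38 measured LIM and focal adhesion genes 2 were higher and 1 lower in RS (3.72% and 5.58% of all measured genes). In OIS 4 were higher and 3 lower (4.92% and 6.63%). ANKRD1, a mechanically induced titin-binding protein of muscle, read 72.0 in OIS, 1726 in RS and 55.1 in growing cells. LIMS2, an adaptor of the integrin-linked kinase, was 2.20-fold higher in RS, at 205.3 in OIS, 587.6 in RS and 266.9 in growing cells. PDLIM3, a Z-disc protein of muscle, ran the other way, at 602.4 in OIS, 66.5 in RS and 242.8 in growing cells, 2.48-fold higher in OIS and 3.65-fold lower in RS than in growing cells. Its other probe set did not share the sign in OIS. PDLIM4, an actinin-binding PDZ and LIM protein, was 3.78-fold higher in OIS, at 7533 in OIS, 3016 in RS and 1993 in growing cells. SVIL was 2.12-fold higher, AFAP1 2.49-fold lower and KANK1 2.43-fold lower in OIS, and in RS TNS1 was 1.83-fold higher and AFAP1 1.65-fold lower.

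Of 21 measured SRF and MRTF target genes outside the set 1 was higher and none lower in RS (3.72% and 5.58% of all measured genes). In OIS 3 were higher and 3 lower (4.92% and 6.63%). The 1 in RS was ANKRD1. The 3 higher in OIS were the immediate early genes FOS, EGR1 and JUNB, and the 3 lower were PHLDB2, FOSL1 and CSRP2. FOS was at least 4.72-fold and JUNB 2.38-fold higher, PHLDB2 3.02-fold and FOSL1 2.18-fold lower. In RS JUNB was 1.87-fold and CCN2, connective tissue growth factor, 1.79-fold higher. EGR1, a zinc finger factor induced by MAP kinases, read 8699 in OIS, 2652 in RS and 2558 in growing cells. CSRP2, a LIM protein of smooth muscle, was 2.10-fold lower in OIS and 1.85-fold lower in RS, at 4859 in OIS, 5508 in RS and 10190 in growing cells. The list mixes growth factor responses with cytoskeletal targets.

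Markers of muscle and mural cells were read beside the muscle-type genes. Of 32 markers of muscle identity, nearly all of them of striated muscle, 25 were at or below the floor on all arrays. Among these were MYOD1, MYOG, CKM and TNNI3, and no marker of the list passed 2-fold. The list hardly covers smooth muscle. Of the 7 measured, MYL4 read 316.8 in OIS, 191.8 in RS and 232.4 in growing cells. TNNT3, TTN and MYL3 were above the floor on all arrays. DES, desmin, the intermediate filament of muscle, had 33.8 in OIS, 20.9 in RS and 51.1 in growing cells. The summed signal of the list was 969.8 in OIS, 738.3 in RS and 807.4 in growing cells. This sum and those of the lists below include values under the floor. Of 13 pericyte and smooth muscle markers 8 were measured, and their summed signal was 4198 in OIS, 5467 in RS and 3340 in growing cells. RGS5, a G protein regulator of pericytes, was high in both senescent states, at 2412 in OIS, 1006 in RS and 308.9 in growing cells. MCAM, an adhesion molecule of mural cells, had 1089 in OIS, 3608 in RS and 1690 in growing cells. KCNJ8, a potassium channel of pericytes, was lower in both, at 124.2 in OIS, 44.8 in RS and 300.0 in growing cells. CSPG4 was 2.82-fold lower in OIS and COX4I2 1.53-fold lower in RS. PLN and KCNMB1, further smooth muscle markers, were at or below the floor on all arrays. Of 14 epithelial, endothelial and blood markers 7 were measured, and their summed signal was 840.3 in OIS, 707.4 in RS and 704.6 in growing cells. Among them PECAM1 was 2.75-fold and VWF 2.19-fold higher and EPCAM 3.2-fold lower in OIS, and SFTPC was 1.7-fold lower in RS. Each of these ratios has a signal near the floor of 45.5. PECAM1 read 49.0 and VWF 59.7 in growing cells, EPCAM 49.1 in OIS and SFTPC 47.4 in RS. Among the fibroblast markers S100A4 was 1.82-fold higher and DCN 2.59-fold lower in OIS, while in RS S100A4 was 3.21-fold and LUM 1.73-fold higher and FAP 1.53-fold lower. The part of a change in cell makeup was not tested.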

How the data were processed

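The authors deposited linear signal intensities of 54613 probe sets, computed with MAS5 per the submitters' processing notes. No version of it is given in the sources used here. This algorithm scales each array by a single factor, so a shift common to all genes is removed. Total RNA (250 ng) was labelled with biotin, per the labels' protocols.

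Genes were named from the platform annotation where a probe set names 1 gene (41091 probe sets), with symbols from RefSeq. Values under the pooled median, 45.5, were raised to it. Each gene was read by its brightest probe set, and measured genes are those over this floor on 1 array or more. Log2 ratios and counts at or past 2-fold describe these arrays, with no p-value. Members and lists were chosen with earlier results of these data known. All measured muscle-type members and regulators, members at or past 1.5-fold, class extremes, and up to 3 genes each way per list and state, also at or past 1.5-fold, are named. ACTB, COL1A1 and the markers MYOD1, MYOG, CKM, TNNI3, MYL4, TNNT3, TTN, MYL3, DES, PLN and KCNMB1 were added after their values were seen. A further list is not reported here. Alternatives numbered 10 planned and 2 added after seeing the data. The steps were tested on simulated data with noise smaller than the SD per probe set. The planted changes were larger than 2-fold and in genes well above the floor, so calls near either limit were not tested. Promoters are RefSeq GRCh38.p14. Python 3.11.15, numpy 2.4.6, pandas 2.3.3 and matplotlib 3.10.9 were used.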

Additional observations from a re-analysis of the deposited data

Results flagged for a closer look

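A pair of members was at least 2-fold lower in OIS and at least 2-fold higher in RS than in growing cells. The log2 ratio of OIS over RS was -4.28 for SYNPO2 and -2.41 for CNN1. Both senescent states share the single growing array, and the difference was not tested.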

How the results depend on the processing

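No paired analysis was possible because each condition had 1 array. The limits are those of single arrays, single probe sets (ACTC1, CNN1, SYNM and ACTN4) and signals near the floor or near the top of the scale. Centring and dropping the filter could not change a call. The median log2 ratio of all measured genes was 0.0 in each comparison, and genes that the filter removes have every value at the floor. Under quantile normalization, another floor or a pseudocount of 16, the members' 2-fold calls were the same genes, with these exceptions. MRTFB was lost after quantile normalization, which left 1 member lower in RS over growing cells. Lowering the floor to the 25th percentile added ACTA1, which made 6 members higher in RS over growing cells and 9 lower in OIS over RS. The median of all probe sets also left 1 member lower in RS over growing cells (4.41% of all measured genes). It gave 7 higher there (2.63%), with ACTA2 and CALD1 added. In OIS over growing cells it gave 5 lower (5.47%), with SYNPO2 lost and MYLK, MYH10 and TPM4 added. In OIS over RS it gave 10 lower (4.2%), with ACTG2 lost and ACTA2, MYL9 and MYLK added. The cause of each shift was not tested.

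At 3-fold 3 members were higher and 0 lower in RS over growing cells, 0 lower in OIS over growing cells, and 0 higher and 5 lower in OIS over RS. Of all measured genes 291 were then higher and 341 lower in OIS over growing cells, 147 and 317 in RS over growing cells, and 305 and 252 in OIS over RS. At 2-fold with the floor at the 25th percentile these were 1541 and 1698, 1317 and 1614, and 1731 and 1579 of 18131 genes. In percent these were 8.5 and 9.37, 7.26 and 8.9, and 9.55 and 8.71.

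At 2-fold with the second brightest probe set they were 279 and 456, 201 and 338, and 315 and 360 of 6759 genes. In percent these were 4.13 and 6.75, 2.97 and 5.0, and 4.66 and 5.33. The members then counted 2 higher and 1 lower in RS over growing cells and 4 lower in OIS over RS. Several muscle-type genes have no second probe set and drop out there. The muscle-type median was then 0.54 in RS over growing cells and -0.89 in OIS over RS, and its difference from the ubiquitous median 0.47 and -0.58. Counting the shared genes as muscle-type gave medians of 0.54 and -0.90 and differences of 0.57 and -0.59. The brightest probe set up to 10000 gave 9 members and 508 genes in all higher in RS over growing cells, and a median of -2.36 and a difference of -1.97 in OIS over RS.

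Of the other settings, the difference in OIS over growing cells ran from -0.47 with the floor at the 60th percentile to 0.12 with the brightest probe set up to 10000. Without probe sets that can cross-hybridize LMOD1 dropped out. TAGLN and TPM1 then passed 2-fold in RS over growing cells, where 6 members were higher (3.88% of all genes measured under that setting). MYL9 and TPM1 passed it in OIS over RS, where 9 were lower (5.6%). TPM4 passed it in OIS over growing cells, where 4 were lower (6.48%).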
